A study of Mus musculus with 40 samples.

Results

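Mice that had been moved from a high-fat diet (HFD) to a normal diet (ND) were compared with mice kept on HFD, in RNA of subcutaneous white adipose tissue (sWAT), which lies beneath the skin. The comparison takes all 16 libraries that the labels place in these groups, 8 of the diet switch and 8 of HFD, out of 40 in the series. The other 24 libraries, 8 each of ND, HFD with semaglutide and HFD with tirzepatide, entered the same fit. ND and tirzepatide are used below as further points of comparison. The labels give the diet-switch group only as HFD followed by ND, and the title of the series speaks of a dietary intervention after treatment with an incretin analog. Whether these mice had received a drug before the switch is not given in the labels, nor are strain, sex, age, the length of either diet or the hour of collection. The labels also do not say that each library is a separate animal, so the spread behind each p-value may be technical.

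White adipocytes store surplus energy as triglyceride. They take up glucose under insulin, turn part of it into new fatty acids, esterify fatty acids into triglyceride, and release them again under adrenergic signals. When the depot grows in obesity, adipocytes enlarge, leptin output increases, macrophages gather, and the matrix around the cells is remodelled. All values below are levels in CPM, counts scaled to the size of the library, or log2 fold changes of the diet switch over HFD with their SE. A gene is said to have risen or fallen where edgeR's quasi-likelihood test gave a Benjamini-Hochberg adjusted p under 0.05 over all 15807 genes tested. In whole tissue, fewer cells of a type and less RNA per cell cannot be told apart.

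The libraries held 2802605 to 4440695 counts in the diet switch and 3144870 to 5489030 in HFD. Diet-switch libraries 3, 4 and 7 stood apart from the other 5. On the leading axis of the within-group variation they lay at 62.1 to 80.6, against -32.3 to 23.5 for the other 5 diet-switch libraries and -47.1 to 18.1 for HFD. The nuclear RNA Malat1 took 0.517 to 0.557% of their counts, against 0.11 to 0.384% in the other 5 diet-switch libraries and 0.125 to 0.217% in HFD. Calls are therefore also given without these 3 libraries. Ribosomal 18S RNA took 4.74% ± 0.993 of counts in the diet switch and 7.52% ± 1.00 in HFD (SD, n = 8 each), a difference of -2.78 percentage points (exact two-sided permutation test, p = 0.000622, adjusted over 3 measures 0.00186). Fold changes were related to the GC content of transcript ends, with r = -0.243 across 15125 genes, which are not independent replicates, and r = -0.169 without the 3 libraries. The adipocyte gene Adipoq stood at a median of 2443 CPM (1529 to 2883) in the diet switch and 2419 CPM (1707 to 2765) in HFD, so the defining adipocyte RNA was abundant in every library of both groups. The 6 defining adipocyte markers summed to 10065 to 16560 CPM in the diet switch and 14702 to 20375 CPM in HFD, and 1 of them, Cidec, fell.

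With all 8 diet-switch libraries, 2030 genes rose (12.8% of those tested) and 1729 fell (10.9%), together 23.8%. Without libraries 3, 4 and 7, 545 rose (3.31%) and 603 fell (3.66%) of 16479 tested, together 6.97%. The genes called in the same direction in both fits numbered 1075, which is 28.6% of the first set of calls and 93.6% of the second. Of the 3759 genes called with all libraries, 3755 had the same sign without the 3, and the median ratio of the fold changes was 0.775. Both fits share the 8 HFD libraries and 5 diet-switch libraries, and the first fit chose these genes. Agreement in sign between the fits is therefore largely built in. The groups did not overlap for 401 genes (2.54%), of which 142 were higher (0.898%) and 259 lower (1.64%) in the diet switch. The median log2 fold change over all genes tested was 0.03. Of the 185 genes chosen for naming that were called, 46 lost the call in at least 1 fit without a single library, and those libraries are named beside each such gene described below, with the fold changes without them.

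**Figure D1:**
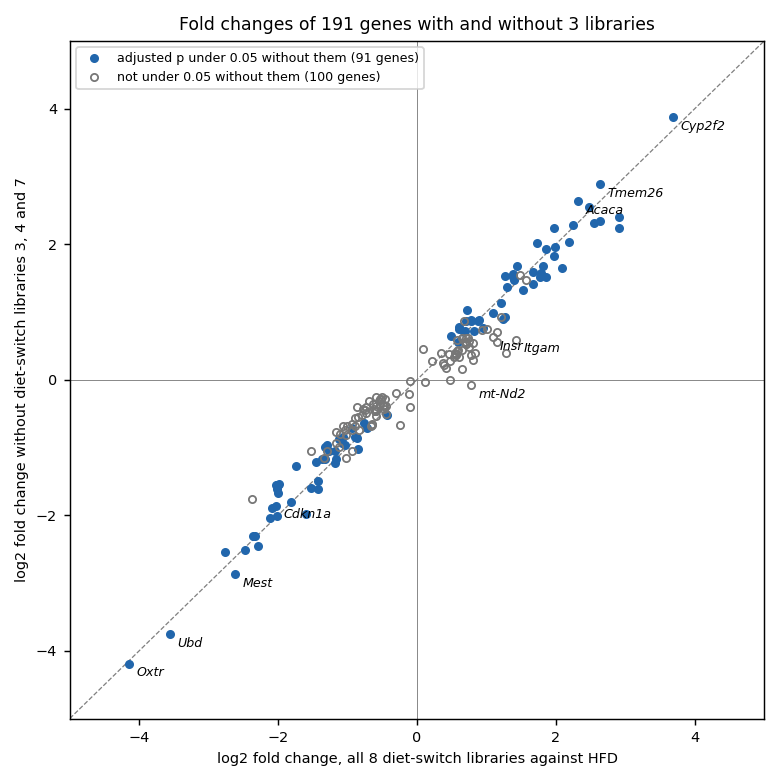
Log2 fold changes of diet switch over HFD for the 191 genes chosen by rule, with all 8 diet-switch libraries (horizontal axis) and without libraries 3, 4 and 7 (vertical axis). The dashed line marks equal values. Filled points are the 91 genes with adjusted p under 0.05 without the 3 libraries and open points the 100 others, and 188 of the 191 kept their sign. Both axes share the HFD libraries and the other 5 diet-switch libraries, so agreement is largely built in.

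Among called genes without overlap and with a mean log2 CPM of at least 3, the largest rise was that of Cyp2f2, a cytochrome P450 known for naphthalene metabolism in lung (chromosome 7, 27119909 to 27133660, GENCODE M21 on GRCm38). It stood at 29.2, 48.3 and 80.2 CPM (lowest, median and highest library) in the diet switch, against 0.22, 3.84 and 9.32 CPM in HFD. The log2 fold change was 3.69 ± 0.51 (SE, adjusted p = 3.28e-06). By the limit on overlap, every diet-switch library lay above the highest HFD library. Cfd, which encodes adipsin, a complement protease made by adipocytes, stood at 3228, 3903 and 7672 CPM in the diet switch, against 271, 643 and 1649 CPM in HFD (2.48 ± 0.34, adjusted p = 1.84e-06). Adrb3, the adrenergic receptor through which catecholamines start lipolysis in mouse fat, stood at 154, 243 and 361 CPM, against 18.8, 40.2 and 82.1 CPM in HFD (2.55 ± 0.35, adjusted p = 2.97e-06). Fam13a, a gene linked to fat distribution in human genetics, rose by 2.90 ± 0.35 and Slc43a1, a transporter of large neutral amino acids, by 2.90 ± 0.30. The other rises among the 15 largest were St6galnac5 (2.64), Acaca (2.32), Celsr2 (2.25), Ifi205 (2.19), the glutamate transporter Slc1a3 (2.09), Net1 (1.97), the ferroxidase ceruloplasmin Cp (1.85), Scd1 (1.81), Fign (1.78) and the matrix proteoglycan Podn (1.77). All 15 were also called without libraries 3, 4 and 7, at 1.52 to 3.87, in a fit that shares the other libraries with the one that chose them. Ifi205 belongs to a family with close copies, so reads may be shared between its members.

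Among genes held to the same limits, the largest fall was that of Oxtr, the oxytocin receptor (chromosome 6, 112473683 to 112489943). It stood at 3.44, 8.01 and 13.4 CPM in the diet switch, against 53.2, 144 and 213 CPM in HFD (-4.15 ± 0.49, adjusted p = 3.79e-07). Ubd, a ubiquitin-like protein that marks others for the proteasome, stood at 3.41, 5.62 and 11.7 CPM, against 29.8, 75.7 and 108 CPM in HFD (-3.55 ± 0.44, adjusted p = 6.2e-07). Cdkn1a, the cell cycle inhibitor p21, stood at 58.9, 95 and 148 CPM, against 267, 371 and 543 CPM in HFD (-2.03 ± 0.23, adjusted p = 7.44e-08). By the limit on overlap, all 8 diet-switch libraries lay under the lowest HFD library in these 3 genes. Hilpda, an inhibitor of the lipase that opens triglyceride breakdown, stood at 11.9, 18.7 and 28.8 CPM, against 31.3, 90.5 and 169 CPM in HFD (-2.36 ± 0.30). Ddit4, an inhibitor of the growth kinase mTORC1, fell by 2.12, the receptor tyrosine kinase Ret by 2.34, the choline transporter Slc5a7 by 2.77, the collagen uptake receptor Mrc2 by 2.09 and Osgin1 by 2.02 on the log2 scale. H3c15, a histone H3 gene with close copies, fell by 2.00. All 15 of the largest falls were also called without libraries 3, 4 and 7, at -4.19 to -1.54, again in a fit that shares the other libraries.

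**Figure D2:**
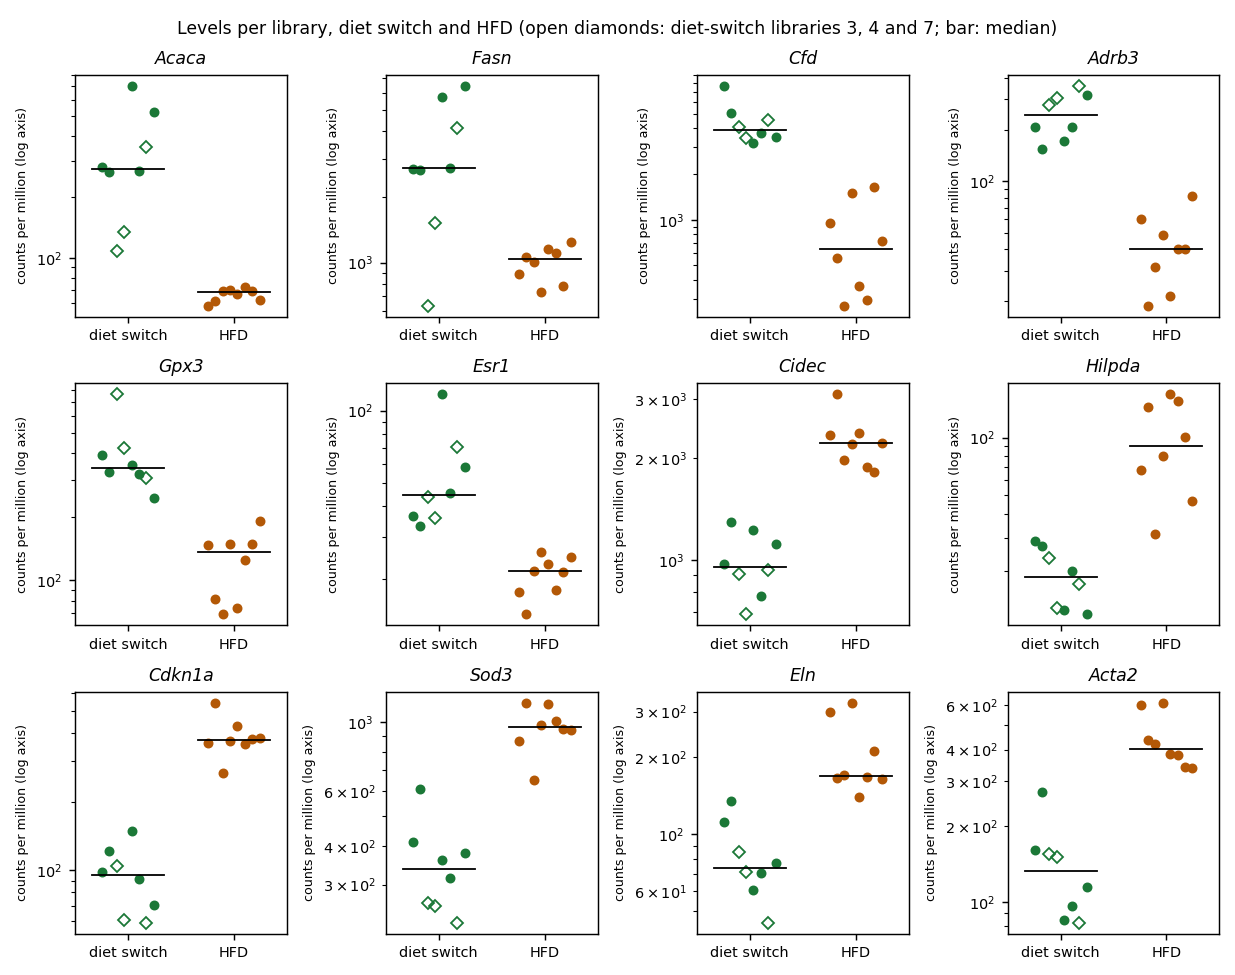
Levels of 12 genes in CPM (log axis) in each diet-switch library (left in each panel) and each HFD library (right), with the group median as a bar and diet-switch libraries 3, 4 and 7 as open diamonds. Acaca and Fasn are low in some of the open diamonds, and the groups overlap in Fasn alone among the 12 genes.

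The remaining falls among the 15 largest were Bc1, Akap5, Elp6, Lrrc17 and Sez6, and they moved as a block. Over the 40 libraries, r with Bc1, a short brain cytoplasmic RNA, was over 0.98 in these symbols and 2 others, Tatdn1 and Gm26549. That limit chose the block, so its r of 0.985 to 0.999 restates the rule. Over the 16 libraries the level of Bc1 was 1.77 to 2.04 times that of Akap5, 2.21 to 2.65 times that of Lrrc17 and 3.31 to 4.14 times that of Elp6, while the ratio to Sez6 ranged from 63.2 to 110. Whether the same reads were counted for several symbols was not tested, and no single member is certain. Together they took 0.444, 1.49 and 2.71% of counts in the diet switch (lowest, median and highest), against 3.79, 5.2 and 7.18% in HFD, with no overlap. Diet-switch libraries 3, 4 and 7 were the lowest at 0.444 to 0.622%. In ND the group took 0.831, 2.47 and 3.75%.

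**Figure D3:**
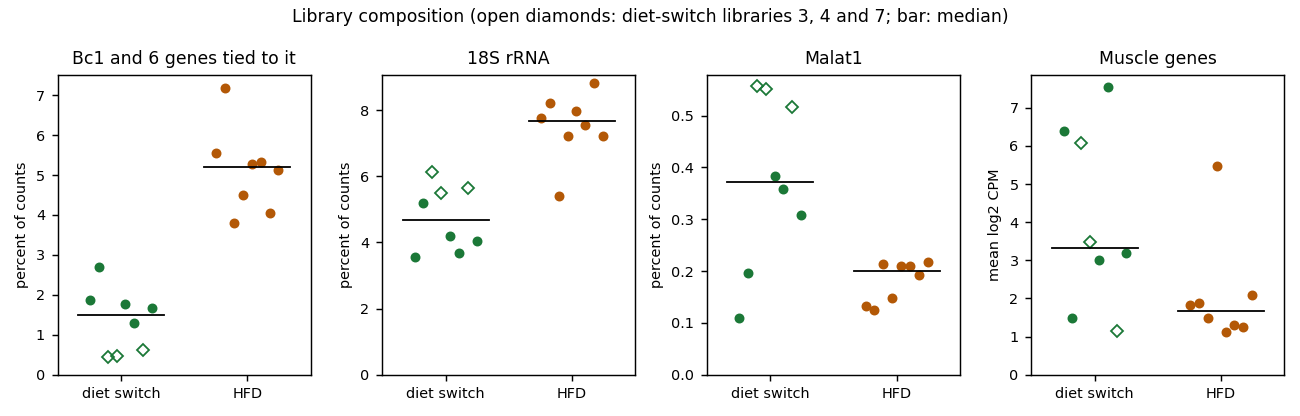
Share of counts in the 7 symbols tied to Bc1, in 18S RNA and in Malat1, and the mean log2 CPM of muscle genes, in each diet-switch library (left) and each HFD library (right), with the median as a bar and diet-switch libraries 3, 4 and 7 as open diamonds. The Bc1 group runs from 0.444 to 2.71% in the diet switch and from 3.79 to 7.18% in HFD, and the open diamonds are highest in Malat1.

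Fatty acid synthesis was the list with the most members higher. Of 18 genes tested, 9 rose and 1, the citrate carrier Slc25a1 (-0.91), fell, with a median log2 fold change of 0.71. That is 55.6% called, against 23.8% of all genes. Acaca encodes acetyl-CoA carboxylase 1, which makes the building block of new fatty acids. It stood at 108, 276 and 707 CPM in the diet switch, against 58.3, 67.9 and 72.4 CPM in HFD (2.32 ± 0.27, adjusted p = 1.67e-07). Acly, which supplies cytosolic acetyl-CoA from citrate, stood at 109, 471 and 1380 CPM, against 110, 131 and 218 CPM in HFD (1.97 ± 0.34, adjusted p = 6.69e-05). Fasn, the fatty acid synthase, stood at 635, 2708 and 6492 CPM, against 736, 1036 and 1247 CPM in HFD (1.73 ± 0.35, adjusted p = 0.000385). The diet-switch libraries were more spread out than the HFD libraries in all of these, and in Acly and Fasn 1 diet-switch library lay below the HFD median. The lowest level of each was in diet-switch library 3. Scd1 and Scd3, desaturases that introduce a double bond into saturated fatty acids and are close relatives of each other, rose by 1.81 ± 0.21 and 1.67 ± 0.26. Thrsp, a protein that promotes lipogenesis, rose by 1.86 ± 0.25 and Acacb, the carboxylase at mitochondria, by 1.29 ± 0.23. With the 3 libraries left out, 10 members rose and none fell, with a median of 0.95 (edgeR, adjusted p under 0.05), and Acaca, Acly and Fasn were at 2.63, 2.24 and 2.02. Slc25a1 lost its call without HFD library 2 or 5 (-0.83 to -0.80).

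Promoters of these genes are shown because the enzymes of fatty acid synthesis and the cholesterol enzyme Hmgcs1, which share known sterol-responsive regulators, moved in opposite directions. RefSeq promoters on GRCm38.p6, 250 bases before to 50 after a start, were found for 4 of the 7 genes looked up, namely Fasn, Acaca, Acly and Hmgcs1, while Scd1 and Sqle were among those with no entry. Capitals mark matches on either strand to the sterol element TCACNCCAC, the E-box CACGTG or the CCAAT box. The Acaca window lies inside the gene, whose annotated span opens at 84129672. Sequences run 5′ to 3′ on the strand of the gene.
Fasn, chr11:120824498-120824797, minus strand: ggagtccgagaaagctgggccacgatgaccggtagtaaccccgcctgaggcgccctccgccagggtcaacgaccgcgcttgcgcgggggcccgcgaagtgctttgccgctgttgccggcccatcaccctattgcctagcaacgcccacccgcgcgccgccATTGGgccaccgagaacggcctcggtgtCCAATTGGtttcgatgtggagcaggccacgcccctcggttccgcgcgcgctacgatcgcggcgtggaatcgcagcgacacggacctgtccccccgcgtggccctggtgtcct
Acaca, chr11:84195188-84195487, plus strand: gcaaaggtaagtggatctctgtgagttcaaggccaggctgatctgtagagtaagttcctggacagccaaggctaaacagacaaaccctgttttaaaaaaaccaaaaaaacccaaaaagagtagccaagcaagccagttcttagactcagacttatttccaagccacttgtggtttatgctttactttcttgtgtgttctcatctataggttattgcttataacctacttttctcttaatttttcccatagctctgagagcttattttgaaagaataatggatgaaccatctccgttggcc
Acly, chr11:100527951-100528250, minus strand: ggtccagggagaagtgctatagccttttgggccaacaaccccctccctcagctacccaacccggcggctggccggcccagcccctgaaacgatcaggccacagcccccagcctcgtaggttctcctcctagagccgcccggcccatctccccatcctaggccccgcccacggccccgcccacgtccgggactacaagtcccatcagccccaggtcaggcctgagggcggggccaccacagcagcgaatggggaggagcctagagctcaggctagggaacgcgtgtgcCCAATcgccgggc
Hmgcs1, chr13:119690101-119690400, plus strand: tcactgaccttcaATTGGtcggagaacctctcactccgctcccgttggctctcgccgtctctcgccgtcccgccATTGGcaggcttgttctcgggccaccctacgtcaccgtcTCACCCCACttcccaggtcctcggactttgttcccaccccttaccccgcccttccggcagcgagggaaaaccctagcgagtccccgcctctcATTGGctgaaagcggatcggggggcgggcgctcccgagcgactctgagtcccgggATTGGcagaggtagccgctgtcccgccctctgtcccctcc
Fasn held 3 CCAAT matches, of which 2 overlap, Acly held 1, Acaca none, and Hmgcs1 4 together with 1 sterol element. No window held the E-box. Of all 32851 promoters in the table, 37.4% held a CCAAT match, 1.24% the sterol element and 7.15% the E-box. A match is a description of letters and not a bound site.

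The genes that feed and follow fatty acid synthesis did not move together. Of the NADPH list 33.3% were called and of triglyceride synthesis 41.7%, against 23.8% of all genes. In the NADPH list, transketolase Tkt rose, at 200, 545 and 834 CPM in the diet switch against 159, 204 and 232 CPM in HFD (1.44 ± 0.25, adjusted p = 4.84e-05). The enzymes that make NADPH in the pentose phosphate pathway fell, G6pdx by 0.59 ± 0.16 and Pgd by 0.85 ± 0.26, and the other 6 of 9 were not called. Neither fall was called without libraries 3, 4 and 7 (-0.47 and -0.55, adjusted p = 0.102 and 0.217), while Tkt was at 1.68 (adjusted p = 1.32e-05). In triglyceride synthesis 4 of 12 fell and 1 rose. Dgat2, which joins the last fatty acid to diacylglycerol, stood at 346, 898 and 1696 CPM, against 1268, 2317 and 2887 CPM in HFD (-1.33 ± 0.27, adjusted p = 0.000464). Mogat2 fell by 2.37, the acyltransferase Agpat2 by 0.78 and Dgat1 by 0.45 on the log2 scale, and Gpat4 rose by 0.59. Dgat2 was the only member of the 12 called without the 3 libraries (adjusted p = 0.0246). Dgat1 lost its call without diet-switch library 3, 4 or 6 or HFD library 2 or 5 (-0.44 to -0.37).

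Genes of cholesterol synthesis and uptake fell where they moved. Of 23 genes tested, 10 fell and none rose by edgeR, with a median of -0.58. That is 43.5% called, and 33.3% of the cholesterol efflux list, against 23.8% of all genes. Dhcr7, the last enzyme of the pathway, stood at 5.28, 10.3 and 13.1 CPM in the diet switch, against 13.4, 23.9 and 31.9 CPM in HFD (-1.27 ± 0.21, adjusted p = 1.72e-05). Hmgcs1, which makes HMG-CoA, stood at 90.6, 126 and 215 CPM, against 208, 327 and 390 CPM in HFD (-1.18 ± 0.23, adjusted p = 0.000299). Insig1, which holds the sterol sensor in the endoplasmic reticulum, fell by 1.29 ± 0.29, and the synthesis enzymes Lss by 1.16, Nsdhl by 1.11 and Mvd by 1.02. The groups overlapped in all of these except Dhcr7. Sqle, squalene epoxidase, was not called, with 1.85, 9.63 and 17.3 CPM against 5.39, 8.28 and 14.2 CPM in HFD (0.09 ± 0.30, adjusted p = 0.855). Without libraries 3, 4 and 7, 4 members fell, namely Dhcr7, Hmgcs1, Insig1 and Lss, at -1.23 to -0.97, and 6 fell without the 10 libraries high in muscle genes, where 8.66% of all genes rose and 7.12% fell. In cholesterol efflux Apoe, the lipoprotein that carries cholesterol out of cells, stood at 2575, 3145 and 3700 CPM, against 1286, 1766 and 2194 CPM in HFD (0.87 ± 0.15, adjusted p = 4.91e-05). The liver X receptor Nr1h3 fell by 0.48, and was not called without the 3 libraries (-0.44, adjusted p = 0.126), while Abca1 (-0.10), Abcg1 (0.21), Nr1h2 (0.12) and Mylip (0.42) were not called.

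Genes known to go with fat expansion fell. Of 5 tested, 4 fell, with a median of -1.43, while 10.9% of all genes fell. Without libraries 3, 4 and 7, 3 of the 5 fell, while 3.66% of all genes did. Lep, the hormone leptin, stood at 355, 407 and 850 CPM in the diet switch, against 1629, 1868 and 1999 CPM in HFD (-1.81 ± 0.30, adjusted p = 2.81e-05). Mest, a marker of adipocyte enlargement, stood at 2.56, 8.24 and 27.7 CPM, against 21.3, 70.2 and 98.3 CPM in HFD (-2.62 ± 0.47, adjusted p = 0.000151). The Wnt antagonist Sfrp5 fell by 1.43 ± 0.39 and the natriuretic peptide clearance receptor Npr3 by 0.93 ± 0.31, and Bmp3 was at -0.24 ± 0.31 (adjusted p = 0.623). Only Lep was without overlap. Npr3 was not called without the 3 libraries (-1.05, adjusted p = 0.0757). Npr3 lost its call without diet-switch library 7 or HFD library 5 (-0.87 to -0.85).

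Of 20 core adipocyte genes tested, 4 rose and 1 fell (25.0% called, against 23.8% of all genes), with a median of -0.08. Without libraries 3, 4 and 7, 3 rose and 1 fell, and the falls were 3 with GC offsets and 2 with DESeq2, without HFD library 4 or without diet-switch library 8. The fall was Cidec, which fuses lipid droplets into larger ones, at 689, 952 and 1298 CPM in the diet switch against 1820, 2216 and 3105 CPM in HFD (-1.18 ± 0.17, adjusted p = 3.28e-06). Beside Cfd and Adrb3, the glucose transporter Slc2a4 rose by 0.59 ± 0.15 and carbonic anhydrase Car3 by 0.65 ± 0.22. Among 11 adipokines, Nrg4, a secreted neuregulin, stood at 53, 73.7 and 121 CPM, against 26.4, 33.2 and 44.4 CPM in HFD (1.26 ± 0.20, adjusted p = 1.38e-05). Nampt rose by 1.00 and Metrnl fell by 0.75, and neither was called without the 3 libraries. In lipolysis and the lipid droplet, 5 of 22 rose and 7 fell (54.5% called, and 45.5% of the adipokines). Beside Adrb3 and Cidec, the adrenergic receptor Adrb1 rose by 1.15, the phosphodiesterase Pde3b by 0.70, the prostaglandin receptor Ptger3 fell by 0.84 and seipin, Bscl2, by 0.76. Without the 3 libraries 1 rose and 2 fell, namely Adrb3, Cidec and Bscl2, and the 7 falls became 3 without HFD library 2 or 5 or diet-switch library 4, and 4 without diet-switch library 3 or 6. The 5 rises became 3 without diet-switch library 7, and the 7 falls 4 with GC offsets or no filter. Car3 lost its call without diet-switch library 3 or 7 or HFD library 2 or 6 (0.56 to 0.60). Metrnl lost its call without diet-switch library 3, 4, 5, 7 or 8 or HFD library 1, 2, 4, 5, 6, 7 or 8 (-0.77 to -0.61). Adrb1 lost its call without diet-switch library 7 (0.79).

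Insulin signalling and fuel use moved in part. The shares called were 36.8% for insulin and glucose transport and 30.4% for glycolysis, pyruvate use and glyceroneogenesis. Of all genes, 23.8% were called. Of 19 insulin and glucose transport genes, 6 rose and 1 fell. The insulin receptor Insr stood at 30.2, 57.8 and 108 CPM in the diet switch, against 19, 31.7 and 34.3 CPM in HFD (1.09 ± 0.22, adjusted p = 0.00033), and libraries 3, 4 and 7 held 78.2 to 108 CPM. The kinase subunit Pik3r1 rose by 0.78 and the kinase Akt1 fell by 0.73. None of these 3 was called by edgeR without libraries 3, 4 and 7 (0.63, 0.37 and -0.41). Slc2a4 and the adaptor Irs1 were, at 0.55 and 0.74. Of 23 genes of glycolysis, pyruvate use and glyceroneogenesis, 4 rose and 3 fell. Pck1, which opens glycerol synthesis in fat, stood at 690, 1062 and 1805 CPM, against 220, 415 and 664 CPM in HFD (1.38 ± 0.27, adjusted p = 0.000302), with no overlap. The pyruvate dehydrogenase subunits Pdha1 and Pdhb rose by 0.82 ± 0.17 and 0.49 ± 0.17, while the pyruvate carrier Mpc2 fell by 0.87, Pfkl by 0.90 and Tpi1 by 0.59. Without the 3 libraries the 3 falls were not called and 4 rises were, Pck1 at 1.56 and Pdha1 at 0.72. The 4 rises became 2 without HFD library 4 or diet-switch library 5 or 7. Irs1 lost its call without diet-switch library 2 or HFD library 5 (0.53 to 0.55). Pfkl lost its call without diet-switch library 3, 4 or 7 or HFD library 2 (-0.83 to -0.80). Pdhb lost its call without diet-switch library 5 or 7 or HFD library 4, 6 or 7 (0.35 to 0.46).

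Few genes of fatty acid use and the mitochondrion were called without libraries 3, 4 and 7, in a fit that called only 6.97% of all genes. With all libraries, 33.3% were called in fatty acid uptake, 40.0% in oxidation and 15.4% in the citric acid cycle. The share was 23.8% in branched-chain breakdown, 10.7% in nuclear and 23.1% in mitochondrial genes of the respiratory chain, against 23.8% of all genes. Of 15 genes of fatty acid uptake and binding, 4 fell and 1 rose, and Fabp5, a fatty acid binding protein also made by macrophages, fell by 1.07 ± 0.20 and was the 1 member called without them (-0.84, adjusted p = 0.00451). The others were Slc27a4 (-0.65), Cav1 (-0.61), Vldlr (-0.59) and Lmf1 (0.70). Of 20 fatty acid oxidation genes 6 fell, among them Acads by 0.64, Hadha by 0.54, Cpt1a by 0.47 and Slc25a20 by 0.45, and 2 rose, Eci1 (0.58) and the coactivator Ppargc1b (0.54). The citric acid cycle gave 2 rises of 13, among them Idh3g (0.39), and branched-chain amino acid breakdown 4 rises of 21, Echs1 (0.56), Ppm1k (0.80), Mccc1 (0.58) and Pccb (0.46), with a fall of Bcat1 (-1.03). Of 28 nuclear genes of the respiratory chain, Sdhb rose (0.53) and Atp5g3 (-0.50) and Cox4i1 (-0.54) fell. Without the 3 libraries edgeR called none of the 82 genes in these 4 lists, against 6.97% of all genes. Of 13 genes of the mitochondrial genome, mt-Co3 (0.68), mt-Nd4 (0.71) and mt-Nd2 (0.78) rose. Without the 3 libraries mt-Co3 was at 0.70 (adjusted p = 0.0472) and mt-Nd2 at -0.08, and none of the 13 was called with GC offsets in edgeR. The 3 rises became 1 without HFD library 1, 2 or 4 or diet-switch library 7, and 5 without HFD library 3 or diet-switch library 1 or 2. The 6 falls in fatty acid oxidation became 3 without HFD library 6, and the 2 falls among nuclear genes of the respiratory chain ranged from 0 without diet-switch library 3 or 4 to 5 without HFD library 3, with DESeq2 or with limma-voom. Vldlr lost its call without diet-switch library 3 or 7 or HFD library 3 (-0.56 to -0.50). Eci1 lost its call without diet-switch library 7 (0.51). Cpt1a lost its call without diet-switch library 7 or HFD library 6 (-0.42 to -0.41). Slc25a20 lost its call without diet-switch library 1, 2, 3, 4 or 6 or HFD library 2, 3, 5, 6 or 8 (-0.45 to -0.38). Idh3g lost its call without diet-switch library 3, 4, 7 or 8 or HFD library 1, 2, 4, 5, 6 or 7 (0.29 to 0.41). Atp5g3 lost its call without diet-switch library 3 or 4 (-0.41). Cox4i1 lost its call without diet-switch library 3, 4, 6 or 7 or HFD library 2, 5 or 8 (-0.51 to -0.46). mt-Nd4 lost its call without diet-switch library 5, 7 or 8 or HFD library 1, 2 or 4 (0.58 to 0.65). mt-Nd2 lost its call without diet-switch library 3, 4 or 7 or HFD library 1, 2, 4, 5 or 7 (0.40 to 0.76). Pccb lost its call without diet-switch library 3 (0.40). Bcat1 lost its call without diet-switch library 3, 6 or 8 or HFD library 2 or 5 (-0.98 to -0.86). Ppargc1b lost its call without diet-switch library 3, 5, 6, 7 or 8 or HFD library 1, 2, 4, 5, 6, 7 or 8 (0.45 to 0.56).

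Brown and beige adipocyte genes moved both ways. Of 11 tested, 4 rose and 2 fell (54.5% called, against 23.8% of all genes). Tmem26, a beige adipocyte surface marker, stood at 1.84, 5.47 and 32.6 CPM in the diet switch, against 0.592, 1.08 and 3.2 CPM in HFD (2.64 ± 0.52, adjusted p = 0.000277). Dio2, the deiodinase that makes active thyroid hormone in brown fat, stood at 1.14, 1.98 and 2.77 CPM, against 4.69, 7.78 and 16.9 CPM in HFD (-2.29 ± 0.50, adjusted p = 0.000855). Cidea rose by 1.57, Cox8b by 1.21 and Ebf2 by 0.68, and Otop1 fell by 1.34. Ucp1, the uncoupling protein of brown fat, was not called (0, 2.71 and 9.23 CPM in the diet switch, against 0, 0.164 and 1.5 CPM in HFD, 3.24 ± 1.37, adjusted p = 0.0808). With libraries 3, 4 and 7 left out, only Tmem26 and Dio2 of these were called, and without diet-switch library 7 the rises were 2. Cox8b lost its call without diet-switch library 7 (0.96). Otop1 lost its call without diet-switch library 3, 4 or 8 or HFD library 2, 5 or 8 (-1.32 to -1.19). Ebf2 lost its call without diet-switch library 1, 2, 5, 6, 7 or 8 or HFD library 1, 2, 5, 6 or 7 (0.59 to 0.71).

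Macrophage genes moved both ways. Of lipid-associated macrophage genes 38.9% were called, of resident ones 16.7% and of general ones 30.8%. Of inflammatory mediators 23.1% were called, near the 23.8% of all genes. In the list of lipid-associated macrophages, the cells that take up lipid around large adipocytes, 6 of 18 fell and 1, osteopontin Spp1 (0.97), rose. Itgax, the surface protein CD11c, stood at 3.13, 5.79 and 7.38 CPM in the diet switch, against 11.5, 15.7 and 19.9 CPM in HFD (-1.52 ± 0.30, adjusted p = 0.000296), with no overlap. The signalling adaptor Tyrobp fell by 1.17, galectin Lgals3 by 1.04, and the lysosomal proteases Ctsl and Ctsd by 0.55 and 0.46. Without libraries 3, 4 and 7 the falls called were Itgax (-1.60) and Fabp5, and Spp1 was at 1.33. Among 12 genes of resident adipose macrophages, Retnla fell by 1.75 ± 0.40 and the transglutaminase F13a1 rose by 0.61. Both were called without the 3 libraries (-1.28 and 0.77), but F13a1 was not with GC offsets, limma-voom or no filter. Retnla was 1 of 2 falls without diet-switch library 1. Of 13 general macrophage and monocyte genes, Aif1 (1.53), Itgam (1.43) and Ccr2 (0.81) rose and the lysozyme Lyz2 fell (-0.62). Itgam stood at 125 to 233 CPM in libraries 3, 4 and 7 and was at 0.59 without them (adjusted p = 0.131), while Aif1 was at 1.32 (adjusted p = 0.0127). Of 13 inflammatory mediators 3 fell and none rose by edgeR. Among them, the acute phase protein Saa3 fell by 1.60 and the nitric oxide synthase Nos2 by 1.53, and Nos2 was not called without the 3 libraries. Ctsl lost its call without diet-switch library 3 or HFD library 2 (-0.49 to -0.47). Ctsd lost its call without diet-switch library 3 or 4 or HFD library 2 (-0.43 to -0.36). F13a1 lost its call without diet-switch library 5 or HFD library 2 or 5 (0.41 to 0.59). Ccr2 lost its call without diet-switch library 4 (0.63). Lyz2 lost its call without diet-switch library 3, 7 or 8 or HFD library 6 or 7 (-0.59 to -0.53). Saa3 lost its call without diet-switch library 3 or 7 or HFD library 1 or 4 (-1.51 to -1.13). Spp1 lost its call without diet-switch library 5 or 6 or HFD library 3, 5, 7 or 8 (0.56 to 0.95).

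Interferon-response genes were higher in 8 of 20 cases and lower in 1, with a median of 0.39. The share called was 45.0% here, 14.3% in class II antigen presentation and 33.3% in complement, against 23.8% of all genes. Ifi44 stood at 5.64, 21.8 and 29.7 CPM in the diet switch, against 0, 5.31 and 13 CPM in HFD (1.98 ± 0.46, adjusted p = 0.00196). Oas2 rose by 1.15, Oasl2 by 0.73, Ifi27l2a by 0.65 and the RNA sensor Ifih1 by 0.64, and Xaf1 fell by 0.65. Ifi44 was the only member called without libraries 3, 4 and 7, and the 8 rises became 4 with GC offsets or with no filter. Left-out libraries gave 3 rises without diet-switch library 7, 4 without diet-switch library 4 or HFD library 1, 2 or 5, and 5 without diet-switch library 3, 5 or 8 or HFD library 6 or 7. Of 7 genes of class II antigen presentation, H2-DMb1 fell by 0.87 ± 0.22. The other 6 were not called, with H2-DMa at -0.89, H2-Eb1 at -0.67, H2-Aa at -0.59, H2-Ab1 at -0.31, Cd74 at -0.11 and Ciita at -0.10. H2-DMb1 was also called without libraries 3, 4 and 7 (-0.86, adjusted p = 0.0331). The falls in this list were 4 with limma-voom or with the 2 groups alone, and 2 with DESeq2 or without diet-switch library 1. Of 12 complement genes 3 rose and 1 fell. Beside Cfd, C2 stood at 39, 56.5 and 91.4 CPM, against 17.7, 27.2 and 42.7 CPM in HFD (1.21 ± 0.23, adjusted p = 0.000167). C4b rose by 0.69 and C1qc, made by macrophages, fell by 0.74, and neither was called without the 3 libraries (0.56 and -0.49). The 3 rises became 5 without HFD library 4 or diet-switch library 6 or 8. Ifi27l2a lost its call without diet-switch library 7 (0.52). Xaf1 lost its call without HFD library 2 (-0.51). Ifih1 lost its call without diet-switch library 3, 4, 5, 6, 7 or 8 or HFD library 1, 2, 4, 5, 6 or 7 (0.55 to 0.64). C1qc lost its call without diet-switch library 3, 7 or 8 or HFD library 6 (-0.69 to -0.62).

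Matrix genes fell more often than they rose. Of collagens 58.8% were called and of other matrix genes 34.6%, against 23.8% of all genes. Progenitor genes were called at 30.8% and insulin-like growth factor genes at 25.0%. Of 17 collagen genes 9 fell and 1 rose, with a median of -0.69. Col4a2, a chain of basement membrane collagen, stood at 298, 368 and 443 CPM in the diet switch, against 573, 685 and 826 CPM in HFD (-0.90 ± 0.17, adjusted p = 0.000179). Col16a1 fell by 1.37 ± 0.25, Col14a1 by 1.17, Col15a1 by 0.94 and Col8a1 by 0.80. Col1a2, a chain of the main fibrillar collagen, moved the other way, at 1670, 3518 and 10669 CPM against 760, 1845 and 2483 CPM in HFD (1.27 ± 0.28, adjusted p = 0.000824). The collagens called without libraries 3, 4 and 7 were Col4a2 (-0.84), Col16a1 (-1.17) and Col1a2 (1.53). Of 26 other matrix genes 6 fell and 3 rose. Elastin, Eln, stood at 45.2, 74.1 and 134 CPM, against 139, 168 and 325 CPM in HFD (-1.32 ± 0.21, adjusted p = 1.82e-05). The proteoglycan Bgn fell by 1.04 ± 0.24 while its relative Dcn rose by 0.71 ± 0.22, and both were called without the 3 libraries (-0.97 and 0.86). Mfap2 fell by 1.01, Sparc by 0.60 and Lamb1 rose by 0.48, and none of these was called by edgeR without them. The 6 falls became 3 without diet-switch library 3 or 4 alone, and the 3 rises became 1 without HFD library 2 or 7 or diet-switch library 7, with GC offsets or with no filter. Among 13 progenitor genes Pdgfra, the receptor that marks fat progenitors, stood at 51.7, 59.1 and 73 CPM, against 18.5, 31.8 and 49.3 CPM in HFD (0.89 ± 0.16, adjusted p = 7.52e-05). Ebf1 rose by 0.56, and Pdgfrb and Dpp4 fell by 0.52 and 1.07. Pdgfra alone of these 4 was called without libraries 3, 4 and 7 (0.88, adjusted p = 0.0014), and no fall was called without diet-switch library 3, 4 or 7 alone. Of 8 insulin-like growth factor genes Igfbp3 fell by 1.12 and Igf1r rose by 0.34, with neither called without the 3 libraries. Sparc lost its call without diet-switch library 3 or 4 (-0.57 to -0.56). Lamb1 lost its call without diet-switch library 3 or 7 or HFD library 2 or 7 (0.39 to 0.45). Pdgfrb lost its call without diet-switch library 3, 4, 5 or 7 or HFD library 2 (-0.49 to -0.44). Dpp4 lost its call without diet-switch library 2, 3, 4, 7 or 8 or HFD library 1, 4, 6, 7 or 8 (-1.07 to -0.92). Igf1r lost its call without HFD library 2, 5, 6 or 7 (0.30 to 0.33).

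Of 22 antioxidant enzymes tested, 2 rose and 4 fell, which is 27.3% called, near the 23.8% of all genes. The groups did not overlap in 22.7% of them, against 2.54% of all genes. Gpx3, the secreted glutathione peroxidase, stood at 245, 340 and 765 CPM in the diet switch, against 68.9, 136 and 190 CPM in HFD (1.67 ± 0.24, adjusted p = 3.28e-06). Sod3, the secreted superoxide dismutase, stood at 226, 337 and 608 CPM, against 651, 965 and 1155 CPM in HFD (-1.45 ± 0.22, adjusted p = 7.6e-06). The peroxiredoxins Prdx5 and Prdx6 fell by 1.13 ± 0.20 and 0.72 ± 0.17, the mitochondrial dismutase Sod2 by 0.49, and the glutathione transferase Gsta4 rose by 1.38 ± 0.28. All but Sod2 were called without libraries 3, 4 and 7. Of 18 genes of endoplasmic reticulum stress 4 rose and 2 fell, with Xbp1 (0.69 ± 0.16, without overlap), Hsp90b1 (0.75), Atf4 (0.48) and Canx (0.38) higher and Calr (-0.43) and Sdf2l1 (-0.69) lower. Only Xbp1 (0.72) and Calr (-0.52) of these were called without the 3 libraries, and Atf4 was at 0.00. The 4 rises became 2 without HFD library 2 or diet-switch library 3, or with no filter. Among 20 immediate early and heat shock genes, the small heat shock protein Hspb1 stood at 288, 403 and 467 CPM, against 548, 1098 and 1516 CPM in HFD (-1.42 ± 0.26, adjusted p = 0.000147). Hsp90aa1 rose by 0.75, and of 17 cell cycle genes Cdk1 fell by 1.30. Neither was called without the 3 libraries. Sod2 lost its call without diet-switch library 3 or HFD library 2 (-0.43 to -0.42). Canx lost its call without diet-switch library 3 or HFD library 2 (0.32). Atf4 lost its call without diet-switch library 3, 4, 6 or 7 or HFD library 1, 2, 3, 4, 5, 6 or 7 (0.32 to 0.51). Sdf2l1 lost its call without diet-switch library 2, 3, 4, 7 or 8 or HFD library 1, 2, 5, 6, 7 or 8 (-0.72 to -0.58).

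Of 14 genes in the list of hormone receptors and growth factors of fat, 4 rose and 3 fell. The list also holds Ubd, a ubiquitin-like protein that is neither. Beside Oxtr and Ubd, the estrogen receptor Esr1 stood at 33.2, 44.6 and 117 CPM in the diet switch, against 14.3, 21.5 and 25.9 CPM in HFD (1.40 ± 0.25, adjusted p = 6.62e-05), with no overlap. Fgf1, a growth factor of fat remodelling, fell by 0.85 ± 0.25 and was at -1.03 without libraries 3, 4 and 7. The glucocorticoid receptor Nr3c1 rose by 0.55 and Vegfa, the growth factor of vessels, by 0.83, and neither was called without them. Of 13 genes of xenobiotic metabolism 4 rose and 2 fell, which is 46.2% called, against 23.8% of all genes. Beside Cyp2f2, Fmo1 rose by 0.78, the carboxylesterase Ces1f, of a family with close copies, by 1.10 and Cyp1b1 by 0.94, while Cyp4b1 fell by 1.08 and the epoxide hydrolase Ephx1 by 0.94. All but Cyp1b1 were called without the 3 libraries, in a fit that called 6.97% of all genes.

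**Figure D4:**
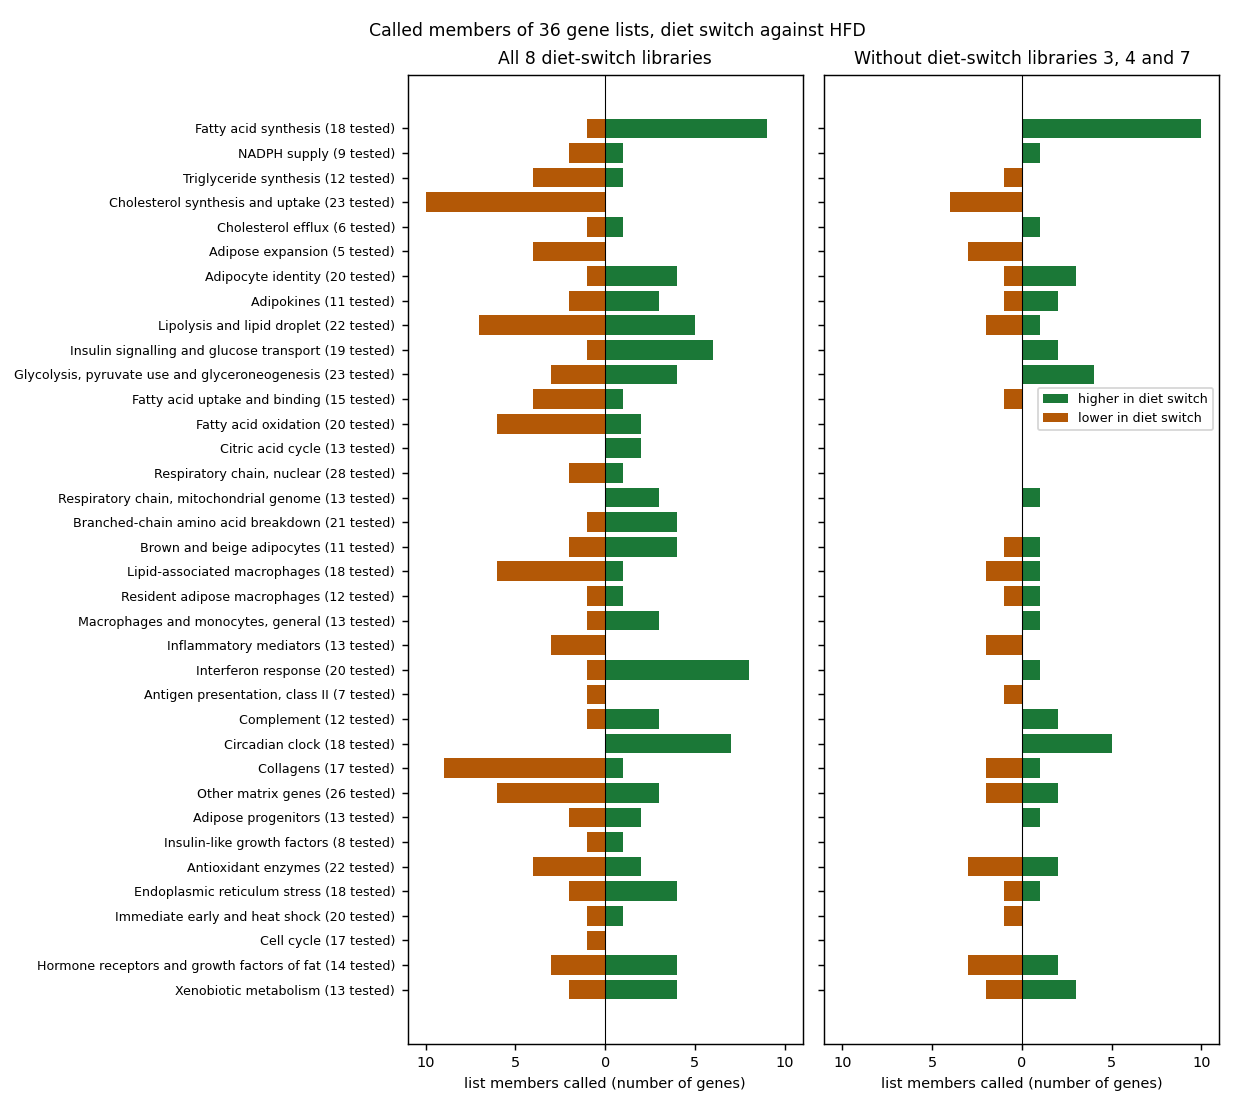
Number of members of each of 36 gene lists called higher (right of 0) or lower (left of 0) in the diet switch against HFD, with all 8 diet-switch libraries (left panel) and without libraries 3, 4 and 7 (right panel). Fatty acid synthesis has 9 and 10 members higher in the 2 panels, while the falls in collagens are 9 and 2 and those in cholesterol synthesis 10 and 4.

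Clock genes were higher in 7 of 18 cases and lower in none by edgeR, with a median of 0.47. That is 38.9% called, against 23.8% of all genes. Per2, a repressor of the circadian clock, stood at 16.8, 43.2 and 53.1 CPM in the diet switch, against 12.5, 15.4 and 19.3 CPM in HFD (1.23 ± 0.24, adjusted p = 0.00028). The nuclear receptor Nr1d2 rose by 0.95 ± 0.19, Per3 by 0.77 ± 0.20, Tef by 0.70 and Bhlhe41 by 0.72. Per2, Nr1d2, Per3 and Bhlhe41 were also called without libraries 3, 4 and 7 (0.89, 0.76, 0.87 and 1.02). Per2 stood at 45.1 to 53.1 CPM in libraries 3, 4 and 7 and at 16.8 to 43.7 CPM in the other 5 diet-switch libraries. The labels give no hour of collection, and hour and group cannot be told apart here. Bhlhe41 lost its call without diet-switch library 8 (0.59).

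Markers of other cell types differed between libraries. Of skeletal muscle markers 15.4% were called and of smooth muscle and pericyte markers 28.6%. Of endothelial markers 36.4% were called and of Schwann cell markers 33.3%, against 23.8% of all genes. Skeletal muscle genes averaged 1.16, 3.33 and 7.55 log2 CPM in the diet switch (lowest, median and highest) and 1.11, 1.66 and 5.47 in HFD. Their summed level ran from 112 to 4446 CPM in the diet switch and from 81.7 to 1200 CPM in HFD, with 2 of 18 genes at 0 in all 16 libraries. By edgeR, 2 of 13 muscle genes tested rose, while all 13 had fold changes above 0, with a median of 2.78 on the log2 scale. The libraries with a muscle mean over 5 log2 CPM were diet-switch 1, 3 and 6 (6.4, 6.07 and 7.55) and HFD 4 (5.47). The number of muscle genes that rose was 7 with DESeq2, 12 without HFD library 4, 4 without diet-switch library 2, and 0 without HFD library 2 or diet-switch library 3 or 6. It was 1 without any of HFD libraries 1, 3, 5, 6, 7 and 8 and diet-switch library 1. Smooth muscle and pericyte markers summed to 437 to 797 CPM in the diet switch and 807 to 1245 CPM in HFD, without overlap. Of the 7 markers 2 fell and 5 were not called. Their median log2 fold change was -0.66, and -0.23 without the libraries high in muscle genes. The medians of the sum were 661 and 911 CPM, and it includes Acta2, whose own medians were 133 and 402 CPM. The sum without Acta2 was not tested. Acta2, smooth muscle actin, stood at 82.7, 133 and 272 CPM, against 339, 402 and 614 CPM in HFD (-1.65 ± 0.34, adjusted p = 0.000636), and was at -1.59 without libraries 3, 4 and 7. Endothelial markers summed to 668 to 1122 CPM in the diet switch and 915 to 1193 CPM in HFD, and 1 of 11 rose and 3 fell. Without libraries 3, 4 and 7 edgeR called 0 of the 11, while with all libraries the falls were 5 with DESeq2, 6 with limma-voom and 1 without the libraries high in muscle genes. S100a8 and S100a9, whose proteins form a complex in neutrophils, moved in opposite directions, at -1.52 ± 0.35 and 2.20 ± 0.51 (adjusted p = 0.00134 and 0.00174). Acta2, S100a8, S100a9, Ucp1, Slc25a1, Spp1 and Ppargc1b were chosen after their values were seen. Of 6 Schwann cell markers 2 rose, and edgeR called 0 of the tested markers of B cells, T cells, epithelium, mast cells and red blood cells. Other settings called 2 falls in red blood cells (DESeq2, limma-voom or the 2 groups alone), 1 rise in epithelium (limma-voom) and 1 in mast cells (GC offsets). The part of these cell types in the changes above was not tested.

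Against ND, 1260 genes were higher (7.97%) and 1078 lower (6.82%) in the diet switch, and without libraries 3, 4 and 7 the counts were 67 and 45 (0.407 and 0.273% of those tested). Of the 15 largest rises over HFD, 9 were also called against ND with all libraries and none without the 3 by edgeR, and of the 15 largest falls 10 and 2. Those 2 falls were Cdkn1a and Osgin1. The counts take calls in either direction. By median, Fam13a lay above ND (220 against 62.6 CPM) and Cyp2f2 below it (48.3 against 118 CPM). The 15 falls include Bc1, Akap5, Elp6, Lrrc17 and Sez6, which moved as a block and may not be separate signals. Osgin1, a gene of the oxidative stress response, stood at 1.92, 3.19 and 7.37 CPM in the diet switch, against 10, 18.2 and 23.4 CPM in ND (-2.07 by edgeR, adjusted p = 6.46e-06) and 10.2, 15.1 and 22.2 CPM in HFD. Cdkn1a stood at 95 CPM (median) in the diet switch, against 278 CPM in ND (-1.62, adjusted p = 1.39e-05). Without the 3 libraries the changes against ND were -2.06 in Osgin1 (adjusted p = 0.000372) and -1.45 in Cdkn1a (adjusted p = 0.00267). The clock genes were also higher than in ND, Per2 by 2.31, Nr1d2 by 1.57 and Per3 by 1.40 (adjusted p = 2.21e-07, 1.05e-06 and 1.44e-05 by edgeR), and all 3 were also called without libraries 3, 4 and 7 (adjusted p = 4.5e-05, 0.000135 and 0.000135). Acaca (-0.39), Acly (-0.18), Scd1 (0.01) and Fasn (-0.55) were not called against ND. These comparisons share the diet-switch libraries with the comparison with HFD.

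Against tirzepatide, a peptide that activates the receptors of GLP-1 and GIP, given on HFD, 45 genes were higher (0.285%) and 18 lower (0.114%) in the diet switch. Lipogenic enzymes were among those higher with all 40 libraries in the fit. None of the 5 below was called with the 2 groups alone (edgeR adjusted p = 0.113 to 0.25, log2 fold changes 1.12 to 2.25). All 5 were called with DESeq2, with the replicate block and without libraries 3, 4 and 7 (edgeR adjusted p = 2.7e-06 to 0.00603 without them). The values that follow are from all 40 libraries. Acaca was higher by 1.32 (adjusted p = 0.0055), Scd1 by 1.18 (adjusted p = 0.00174), Acly by 2.26 (adjusted p = 0.000656), Fasn by 1.67 (adjusted p = 0.0101) and Tkt by 1.13 (adjusted p = 0.0145), by edgeR. Per2 (-0.06), Cdkn1a (0.17) and Osgin1 (-0.59) were not called. Of the 15 largest rises over HFD, 2 were called against tirzepatide, and of the 15 largest falls 0, also without libraries 3, 4 and 7. Tirzepatide medians were 41.6 CPM in Cyp2f2, 6767 in Cfd, 7.04 in Oxtr and 6.89 in Ubd. Those of the diet switch were 48.3, 3903, 8.01 and 5.62 CPM. A gene not called is not thereby equal in the 2 groups. Without libraries 3, 4 and 7, 301 genes were higher (1.83%) and 46 lower (0.279%), together 2.11%.

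**Figure D5:**
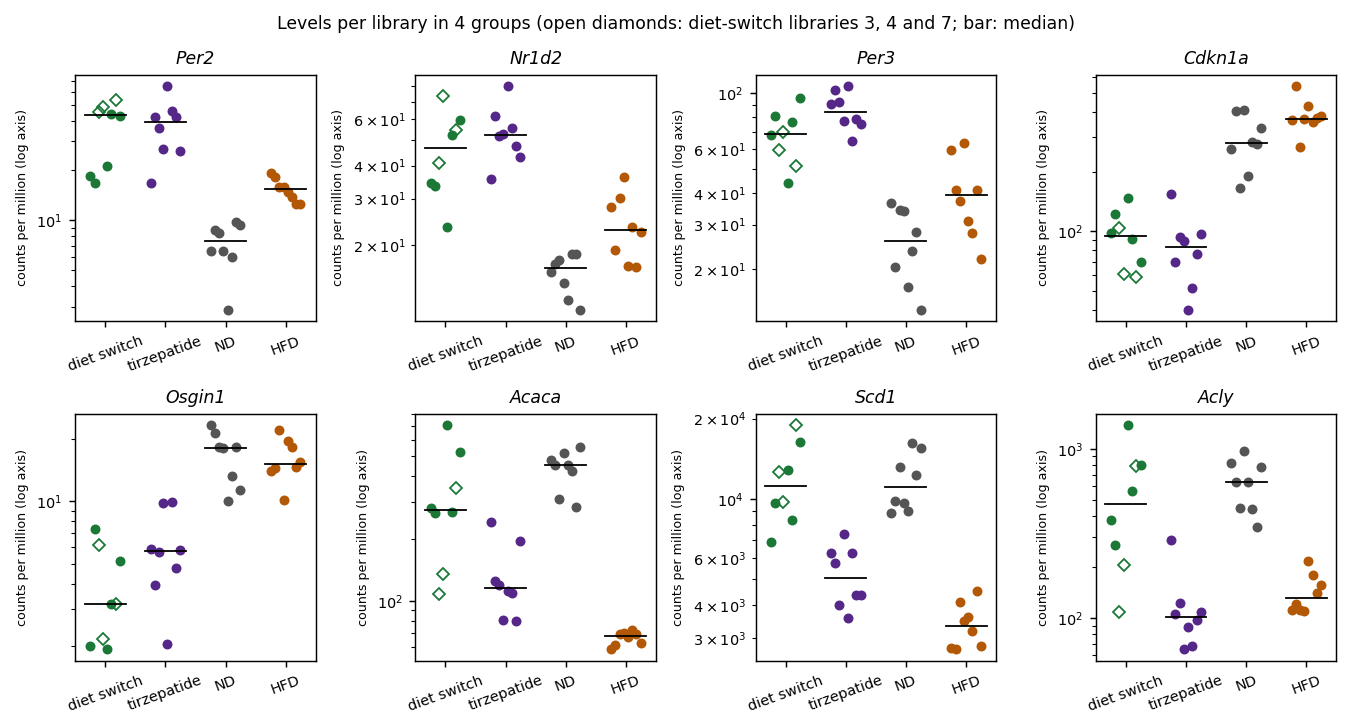
Levels of 8 genes in CPM (log axis) in each library of the diet switch, tirzepatide, ND and HFD, with the median as a bar and diet-switch libraries 3, 4 and 7 as open diamonds. Per2 has medians of 43.2 CPM in the diet switch, 7.46 CPM in ND and 15.4 CPM in HFD, and Osgin1 of 3.19 CPM in the diet switch, 18.2 CPM in ND and 15.1 CPM in HFD.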

How the data were processed

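Mouse sWAT RNA was sequenced as 3′-end libraries (QuantSeq, HiSeq 4000), per the labels' protocols. The genome build was mm10, per the submitters' processing notes, and no source used here names the aligner or counter. Raw counts per gene symbol were deposited by the authors (34843 symbols, 40 libraries). They also deposited a table of normalized signal, which equals the counts divided by 1 factor per library (largest relative spread 1.15e-09) and was used for that check alone. It holds 16 columns of no sample given here, which were not used.

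Genes were filtered with filterByExpr and scaled by TMM. edgeR 4.0.16 in R 4.3.3 fitted 1 mean per group over all 40 libraries, and its robust quasi-likelihood test gave p-values with Benjamini-Hochberg adjustment over 15807 genes. The SE is the log2 fold change divided by the square root of F. Single summary values were compared by exact permutation over 12870 splits of 16 libraries. The depth of 2802605 to 5489030 counts per library limits low genes. In data simulated for this comparison on 15572 genes, 16.4% of 1.5-fold, 49.3% of 2-fold and 87.9% of 4-fold changes were called. The genes changed at these folds numbered 67, 67 and 66. The share called by level, or with as many genes changed as were called here, was not tested.

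The members and lists were chosen with earlier results of these data known. Named genes were the 15 largest called changes in each direction without overlap and with a mean log2 CPM of at least 3, up to 6 called members per pathway list by adjusted p, all members of lists of up to 7, and the promoter genes, 191 in all. Gene models, GC content of the last 500 bases and coordinates came from GENCODE M21 (95.7% of tested genes matched). Promoters came from RefSeq on GRCm38.p6. Alternatives were DESeq2 1.42.0, limma 3.58.1 with quality weights, other filters and scaling, GC offsets, the 2 groups alone, a replicate block and left-out libraries. Those without libraries high in muscle genes (mean log2 CPM over 5) were added after seeing the data. Some members of the lists are counted but not reported singly here.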

Additional observations from a re-analysis of the deposited data

Results flagged for a closer look

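Among 198 genes in 2 groups of 8 libraries, which make 396 groups, a library lay far from the other 7 of its group in 13 cases. These came from 5 libraries, and chance alone gives about 1 in 20 groups, more than were found. In the diet switch, library 2 was lowest in Net1 (41 CPM, median of the other 7 92.5) and highest in Col16a1 (28.3, others 10.5), and library 3 was lowest in Ctsd (272, others 504). In HFD, library 2 was lowest in F13a1 (73.2, others 151), Hsp90b1 (64.7, others 132) and Nr3c1 (60.5, others 103) and highest in Sod2 (319, others 237). HFD library 3 was lowest in Dgat2 (1268, others 2368), Akt1 (90.2, others 164) and Calr (269, others 373) and highest in Bmp3 (154, others 68). HFD library 8 was lowest in Scd3 (5.45, others 17.3) and highest in Ifi27l2a (1283, others 769).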

How the results depend on the processing

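The count of 3759 genes called against HFD was 1148 without diet-switch libraries 3, 4 and 7 and ran from 2849 to 4312 when single libraries were left out. Against ND the 2338 calls became 1470 with the 2 groups alone and 112 without the 3 libraries. Against tirzepatide the 63 calls became 231 with DESeq2, 1 with the 2 groups alone, 99 with the replicate block and 347 without the 3 libraries. The cause was not tested. Without the 3 libraries Nr1h2 was at -0.03 and mt-Nd2 at -0.08. With GC offsets Cd74 and Ciita were at 0.10. Ciita ran from -0.24 to 0.00 without single diet-switch or HFD libraries and was at 0.05 without the libraries high in muscle genes. Sqle was at -0.01 with limma-voom, and ran from -0.09 to 0.24 without single libraries, with -0.09 without diet-switch library 5 and -0.01 without diet-switch library 8. With a replicate block 3930 genes were called against HFD. The numbers were not taken to pair the libraries: 2 of 8 same-numbered pairs had a correlation over 0.1, and 2 of 8 diet-switch libraries correlated best with their own number. GC offsets were therefore not run with the block. With the block, falls became 3 in class II, 5 in the nuclear respiratory chain and 2 in core adipocyte genes, and rises 5 in the mitochondrial genome and 0 in resident macrophages. Of the 185 named genes called, 184 kept the call with DESeq2, 158 of 184 with GC offsets, 163 without a filter and 146 without the libraries high in muscle genes. Depth limits genes of a few CPM, such as Mogat2 and Ucp1.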
